A study of Rattus norvegicus with 32 samples.

Results

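The spread of transcript levels between animals was compared at 24 and at 8 months in the sciatic and the radial nerve of the rat. A probe set is a group of array probes read as 1 value on the log2 scale. For each probe set that is not a hybridisation control, the SD was taken over the 8 animals of each nerve and age, and the variance at 24 months was divided by the variance at 8 months in the same nerve. This gave 31042 of 31139 probe sets, with no filter on level, and 32 of 32 arrays. The ratio is given as a log2 variance ratio, so that a value of 2 is a 4-fold variance and a 2-fold SD, and a positive value means that the old animals were farther apart than the adult ones. Levels are given only where the spread rests on them.

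The 4 groups of 8 arrays were sciatic nerve at 24 months (old), sciatic nerve at 8 months (adult), radial nerve at 24 months and radial nerve at 8 months. All 16 animals were male rats of the Wistar strain, an outbred stock whose members differ in genotype. None had a treatment or a modified gene, and each animal gave both nerves, a short piece from the mid-thigh for the sciatic nerve and from the arm for the radial nerve. Per the study's methods the animals were housed in pairs and grouped by birth date and by the state of the hindlimb muscles, and the labels give neither cage nor birth date. The animals are called old 1 to old 8 and adult 1 to adult 8 after the replicate numbers of the titles, and a number stands for the same animal in both nerves. For adult 4, adult 5 and adult 6 the source names exchange the nerves of both arrays, 6 arrays in all, and the titles were used.

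A peripheral nerve is a bundle of axons wrapped by Schwann cells, most of which form myelin, held in a collagen matrix with macrophages, fibroblasts and vessels and closed by a perineurial sheath. In a damaged nerve, Schwann cells leave the myelinating state and take up a repair state marked by the neurotrophin receptor p75, while macrophages clear debris. Genes of the major histocompatibility complex, called RT1 in the rat, differ in sequence between animals and carry near-identical relatives, so that a probe set can read one allele better than another and may read more than 1 gene.

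The Schwann cell and myelin genes Pmp22 (14.3 to 14.5), Mbp (13.9 to 14.2), Prx (12.7 to 13.4), S100b (13.8 to 14.2) and Sox10 (11 to 12.1) were high on all 32 arrays. Array medians lay between 7.94 and 7.99 and arrays correlated with each other between 0.965 and 0.996. Transcripts of skeletal muscle varied widely between pieces of the same group. The mean of the muscle list lay between 6.75 and 12.1 in old sciatic nerves against 6.89 and 11 in adult ones, and between 7.38 and 13.6 in old radial nerves against 7.44 and 13.5 in adult ones. In whole tissue, fewer cells of a type and less RNA per cell cannot be told apart.

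For most probe sets the variance was higher in old than in adult animals. The median SD of a probe set was 0.155 in old sciatic nerves and 0.132 in adult ones, and 0.153 in old radial nerves and 0.136 in adult ones. The median log2 variance ratio was 0.537 in the sciatic nerve, with a higher variance in the old animals for 20049 probe sets (64.6%), and 0.405 in the radial nerve, with 19213 (61.9%). The shift grew with the level. In the dimmest 7761 probe sets the median ratio was 0.101 in the sciatic and -0.0111 in the radial nerve, and in the brightest 7761 it was 0.921 and 0.696. A variance ratio beyond 4.99-fold, the 95% limit for 8 against 8 normal values, was reached by 3626 probe sets with the wider spread at 24 months and by 910 with the wider spread at 8 months in the sciatic nerve, and by 2764 and 733 in the radial nerve. Probe sets share the same animals, so these are not independent counts.

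As 1 value per array, the root mean square deviation from the mean of its own group was taken over all probe sets. It was 0.24 ± 0.0658 in old and 0.19 ± 0.0283 in adult sciatic nerves (SD, n = 8 each), a log2 ratio of 0.341 that did not pass the threshold (exact permutation test, two-sided, p = 0.0577, adjusted over both nerves 0.115). For radial nerves this distance was 0.236 ± 0.0509 at 24 months and 0.22 ± 0.0254 at 8 months (log2 ratio 0.102, exact permutation p = 0.465). Old 4 (0.356) and old 1 (0.331) lay above the other 6 old sciatic nerves (0.184 to 0.236). Without both of them, an omission chosen after the values were seen that lowers the spread of the old group by construction, the sciatic median log2 variance ratio turned to -0.0176 and the log2 ratio of the distances was 0.0453. With the squared median absolute deviation in place of the variance and all animals kept, the median log2 ratio was 0.445 in the sciatic and 0.364 in the radial nerve. With the nerve of the source name the median log2 variance ratio was 0.372 in the sciatic and 0.192 in the radial nerve, and the log2 ratios of the distances were 0.148 and 0.0181 (exact permutation, adjusted p = 0.708 and 0.896). Without the 3 animals of contradicting source names the median ratios were 0.856 and 0.585. Without adult 5 (0.253), the adult sciatic nerve farthest from its group, the log2 ratio of the distances was 0.442 and passed the threshold (exact permutation, adjusted p = 0.00963). That omission lowers the spread of the adult group by construction. No other omission of a single animal passed in the sciatic nerve (exact permutation, lowest adjusted p 0.0538, without old 6). Without old 2 (0.337), the old radial nerve farthest from its group, the radial log2 ratio turned to -0.0262.

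**Figure D1:**
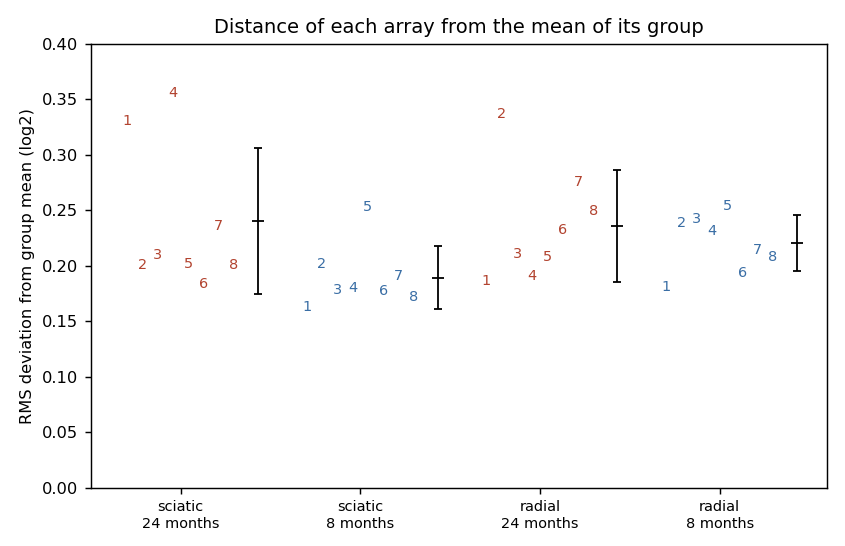
Root mean square deviation of each array from the mean of its group over 31042 probe sets (y axis, log2), for old and adult sciatic and radial nerves (x axis). Figures are replicate numbers and bars are mean and SD over 8 arrays. Old 1 and old 4 stand above the other sciatic nerves at 0.331 and 0.356.

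The change in spread was tested for each probe set with limma on the absolute deviations of the animals from their group mean (the Levene form), with Benjamini-Hochberg adjustment over 31042 probe sets. In the sciatic nerve 88 probe sets (0.283%) passed an adjusted p of 0.05, of which 54 (0.174%) were more variable and 34 (0.11%) less variable at 24 months. In the radial nerve 147 (0.474%) passed, 106 (0.341%) more variable and 41 (0.132%) less. At an unadjusted p under 0.05 the counts were 2790 more and 877 less variable in the sciatic nerve and 2543 and 813 in the radial nerve. The calls with a single gene symbol stand for 43 genes in the sciatic and 67 in the radial nerve. Both nerves shared 49 calls, 26 more and 23 less variable at 24 months, with the same direction in 49 of 49. They were 55.7% of the sciatic and 33.3% of the radial calls. The nerves come from the same animals and are not independent samples. Without the 3 animals of contradicting source names the excess of more variable calls turned round, to 27 more and 40 less variable in the sciatic nerve and 28 and 37 in the radial nerve. With the nerve of the source name it was 49 and 39 in the sciatic and 80 and 56 in the radial nerve.

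In most called probe sets several animals stood apart from the rest of their group. When the largest gap between neighbouring values was used to divide each group, 2 or more animals stood on the smaller side for 94.4% of the probe sets called more variable in the sciatic nerve, against 41.6% of all probe sets at 24 months. The gaps were counted on the same arrays that gave the calls. A test on absolute deviations from the mean favours groups that divide in 2 sets, so this contrast follows in part from the selection. With deviations taken from the group median the calls fell to 19 in the sciatic and to 21 in the radial nerve. Of 66 called pairs of gene and nerve for which the alternatives were recomputed gene by gene, 13 passed with the median: RT1-Ba, Gstm4, Zfp212 and Plekhh1 in both nerves, Slc5a3, Kazn and Vcl in the sciatic nerve, and Ajap1 and Dusp2 in the radial nerve. Each of these 13 also passed with any single animal left out, as did 7 others. Those 20 were the 13 and, in the sciatic nerve, RGD1309362, Gnas, Dcps and Gpr83 and, in the radial nerve, Uqcc6, Gad1 and Sqle. Ajap1 was dim, at a mean of 5.395 in old and 4.366 in adult radial nerves, below the minimum of 6 set for named genes.

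The same animals often stood apart in both nerves. Both nerves hold the same animals and were fitted together with a shared error, so this is a description and not an independent check. Among the 54 probe sets more variable in old sciatic nerves, the largest gap separated the same old animals in the radial nerve for 27 (50%), against 4.44% of all probe sets. For the 106 of the radial nerve it was 31 (29.2%). Among the probe sets less variable at 24 months, the same adult animals stood apart in both nerves for 25 of 34 (73.5%) in the sciatic and 25 of 41 (61%) in the radial set, against 5.9% of all probe sets at 8 months. Part of these probe sets were called in both nerves.

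The smallest adjusted p of all probe sets belonged in both nerves to 1370428_PM_x_at, which has no gene symbol here and was chosen after its values were seen. Its SD was 4.18 in old and 0.14 in adult sciatic nerves (adjusted p = 7.45e-22) and 4.07 and 0.151 in radial nerves (adjusted p = 1.58e-21). Among the probe sets with a gene symbol the smallest adjusted p in both nerves belonged to one annotated to RT1-Ba, which encodes the alpha chain of a class II molecule that presents antigen (probe set 1377334_PM_at, 1 of 4 for this gene, chosen after its values were seen). Its sciatic level was 5.86 at the lowest, 8.34 at the median and 11.59 at the highest in old animals, against 10.78, 11.05 and 11.24 in adult animals. Radial levels were 5.66, 8.15 and 11.08 in old animals, against 10.73, 11.01 and 11.25 in adult animals. Old 2, old 3, old 4 and old 5 made up the low side in both nerves and lay at 6.51 or below, while the other 4 old animals lay at 9.97 or above and overlapped the adult animals only in part. The SD was 2.44 in old and 0.187 in adult sciatic nerves (adjusted p = 5.69e-11) and 2.39 and 0.167 in radial nerves (adjusted p = 8.23e-11, limma in both cases). The other 3 probe sets of the gene did not pass in either nerve, and the brightest of them, at a mean of 11.8, had SDs of 0.873 in old and 0.541 in adult sciatic nerves.

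RT1-CE5, a class I gene, divided the old animals differently. It was 4.36 at the lowest, 9.96 at the median and 11.95 at the highest in old sciatic nerves, against 7.92, 8.34 and 9.20 in adult ones. Radial levels were 4.03, 10.36 and 10.97 in old animals, against 8.13, 8.62 and 9.39 in adult animals. Old 2 and old 3 were lowest in both nerves (4.03 to 4.71), old 5 lay between 7.33 and 7.58, and the other 5 old animals lay above all adult animals. The limma adjusted p was 0.0281 in the sciatic and 0.0102 in the radial nerve, and the radial call was lost without old 2 or old 3 (highest adjusted p 0.129), as was the sciatic call (0.213). The sciatic call was also lost when any adult animal but adult 7 was left out.

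The array holds 28 probe sets for 17 RT1 genes, chosen here after their values were seen. In each nerve 3 of them were called more variable and 0 less variable at 24 months, namely RT1-Ba and a pair of probe sets of RT1-CE5, beside 0.174% of all probe sets called more variable in the sciatic and 0.341% in the radial nerve. An SD above 1 was reached by 7 of 28 in old and 3 of 28 in adult sciatic nerves, and by 5 and 3 in radial nerves. The median log2 variance ratio over the 28 was 1.91 in the sciatic and 0.834 in the radial nerve, beside 0.537 and 0.405 over all probe sets. One of them divided the adult animals. RT1-T24-4 lay between 9.74 and 12.13 in the old nerves of both kinds, and between 9.92 and 11.63 in 6 adult animals, but between 4.70 and 6.31 in adult 3 and adult 7 in both nerves. Its SD was 0.714 in old and 2.85 in adult sciatic nerves (adjusted p = 0.167) and 0.476 and 2.69 in radial nerves (adjusted p = 0.137), and neither passed.

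Several genes outside the complex also had a subset of old animals apart in both nerves. Lcn2, the acute phase protein lipocalin-2 that binds iron carriers of bacteria, was 6.39 at the lowest, 7.07 at the median and 9.94 at the highest in old sciatic nerves, against 9.62, 9.85 and 10.65 in adult ones. Radial levels were 6.55, 7.48 and 9.76 in old animals, against 9.47, 9.87 and 10.29 in adult animals. Old 1, old 2 and old 8 were high in both nerves, and the other 5 old animals lay below all adult animals. The SD was 1.47 against 0.336 in the sciatic (adjusted p = 0.00215) and 1.27 against 0.24 in the radial nerve (adjusted p = 0.00646). The sciatic call was lost without old 1 or old 2 (up to 0.147) and the radial call without old 1, old 2 or old 8 (up to 0.113).

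Dcps, the scavenger enzyme that removes caps from degraded mRNA, was 8.23, 8.40 and 9.57 at the lowest, median and highest in old sciatic nerves, against 8.30, 8.39 and 8.42 in adult ones. Old 3, old 4 and old 7 lay at 9.10 or above in both nerves, and the other 5 old animals lay between 8.23 and 8.57, near the adult ones. The SD was 0.532 in old and 0.0528 in adult sciatic nerves (adjusted p = 8.35e-05) and 0.416 and 0.124 in radial nerves (adjusted p = 0.0137). The radial call was lost without any of these 3 old animals (up to 0.213), and the sciatic call was not.

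Slc5a3, the sodium and myo-inositol cotransporter by which cells take up an osmolyte, was 8.18, 9.96 and 10.89 at the lowest, median and highest in old sciatic nerves, against 10.85, 10.93 and 11.17 in adult ones. Its SD was 0.994 in old and 0.118 in adult sciatic nerves (adjusted p = 0.00177) and 0.744 and 0.0954 in radial nerves (adjusted p = 0.0169, lost without old 3 at 0.0847). Old 1, old 3 and old 6 were lowest in the sciatic nerve, and these 3 with old 4 in the radial nerve. Another probe set of the gene, at a mean of 4.76, had SDs of 0.198 and 0.202 in old and adult sciatic nerves and did not pass.

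Hyou1, a chaperone of the endoplasmic reticulum, was low in old 3, old 4 and old 6 in both nerves. Its SD was 1.02 in old and 0.186 in adult sciatic nerves (adjusted p = 0.00307) and 0.855 and 0.169 in radial nerves (adjusted p = 0.0246), and the sciatic call was lost without any of those 3 animals (up to 0.127). A second, dimmer probe set did not pass in either nerve. Cyp4f17, a cytochrome P450, was high in old 2, old 3 and old 7, with an SD of 0.533 in old and 0.0741 in adult sciatic nerves (adjusted p = 0.0075) and of 0.552 and 0.114 in radial nerves (adjusted p = 0.00709). Both calls were lost without any of the 3 (up to 0.129 and 0.112). Clec3b, which encodes the plasminogen-binding protein tetranectin, was high in old 3, old 6 and old 7 in both nerves. Its SD was 1.39 in old and 0.378 in adult sciatic nerves (adjusted p = 0.00172, up to 0.115 without any of the 3) and 1.05 and 0.385 in radial nerves, where it did not pass (adjusted p = 0.112). A second probe set of the gene was called in the sciatic nerve too (0.00783).

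Further genes of this kind, Gnas, Plekhh1, Gabbr1 and Mlycd, were chosen after their values were seen. Gnas encodes a stimulatory G protein subunit, and 1 of its probe sets (1387906_PM_a_at) lay between 9.20 and 9.52 in old 2, old 3 and old 4 and between 6.99 and 7.92 in the other old animals over both nerves. Its SD was 1.08 in old and 0.21 in adult sciatic nerves (adjusted p = 4.12e-05) and 0.876 and 0.183 in radial nerves (adjusted p = 0.00121, up to 0.0981 without any of the 3). Plekhh1 was low in old 3, old 4, old 5 and old 7 in both nerves, with an SD of 1.17 in old and 0.374 in adult sciatic nerves (adjusted p = 0.00539) and of 1.25 and 0.33 in radial nerves (adjusted p = 0.00103). Gabbr1, a subunit of the GABA-B receptor, was high in old 1, old 4 and old 7, with an SD of 0.711 in old and 0.172 in adult sciatic nerves (adjusted p = 0.0296) and of 0.731 and 0.112 in radial nerves (adjusted p = 0.00389). Its sciatic call was lost in 10 and its radial call in 2 of 16 omissions of an animal. Mlycd, the malonyl-CoA decarboxylase of fatty acid metabolism, was low in old 2, old 3 and old 5 in both nerves and passed in the sciatic nerve alone (SD 0.315 in old and 0.091 in adult nerves, adjusted p = 0.0303, lost in 9 of 16 omissions). For Gnas, Plekhh1 and Gabbr1 the division was seen by 1 probe set only. The other probe set of Gnas, at a mean of 13.6, had SDs of 0.0191 in old and 0.0287 in adult sciatic nerves, and none of the others of these 3 genes passed in either nerve.

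**Figure D2:**
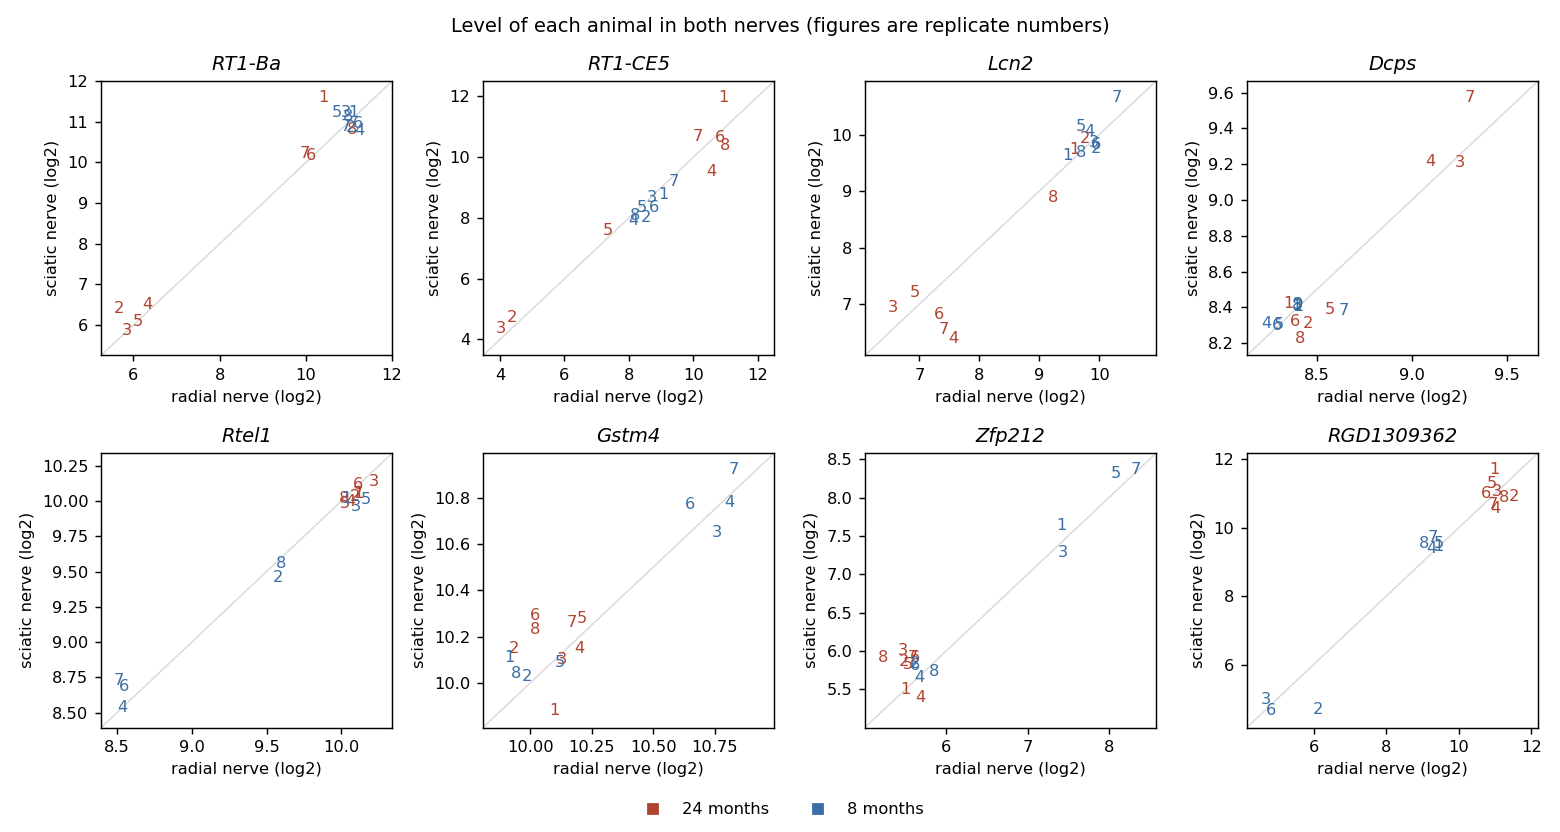
Level of each animal in the radial nerve (x axis, log2) and in the sciatic nerve (y axis, log2) for 8 genes, with old animals in red and adult animals in blue. Figures are replicate numbers. The same animals stand apart in both nerves, such as old 2 to old 5 for RT1-Ba and adult 4, adult 6 and adult 7 for Rtel1.

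Other genes were divided among the adult animals and close together in the old ones. Rtel1, a helicase that maintains telomeres, was 9.98 at the lowest, 10.04 at the median and 10.14 at the highest in old sciatic nerves, against 8.54, 9.51 and 10.02 in adult ones. In the radial nerve it was 10.02, 10.10 and 10.22 in old animals, against 8.52, 9.59 and 10.16 in adult animals. Adult 4, adult 6 and adult 7 were lowest in both nerves, adult 2 and adult 8 lay in between, and adult 1, adult 3 and adult 5 lay near the old animals. The SD was 0.0564 in old and 0.632 in adult sciatic nerves (adjusted p = 0.00569) and 0.0647 and 0.734 in radial nerves (adjusted p = 0.000492). A second probe set of the gene passed as well (0.0383 in the sciatic and 0.0042 in the radial nerve), and another did not (0.111 and 0.0933). The sciatic call was lost without adult 4, adult 6 or adult 7 (up to 0.169) and the radial call without adult 7 (0.0525).

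Gstm4, a glutathione transferase of the mu class, was 9.88, 10.19 and 10.29 at the lowest, median and highest in old sciatic nerves, against 10.03, 10.38 and 10.92 in adult ones. Adult 3, adult 4, adult 6 and adult 7 lay between 10.65 and 10.92 over both nerves, above all old animals, and the other 4 adult animals between 9.92 and 10.12. The SD was 0.134 in old and 0.389 in adult sciatic nerves (adjusted p = 0.000108) and 0.0993 and 0.421 in radial nerves (adjusted p = 1.23e-05). Glutathione transferases of this class are close relatives, so the gene that the probe set reads is uncertain.

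Zfp212, RGD1309362, Phf20 and Vcl behaved likewise and were chosen after their values were seen. Zfp212, a zinc finger gene, lay between 5.22 and 6.00 in all old nerves and between 5.62 and 5.84 in adult 2, adult 4, adult 6 and adult 8, but between 7.28 and 8.36 in the other 4 adult animals. Its SD was 0.221 in old and 1.2 in adult sciatic nerves (adjusted p = 4.12e-05) and 0.14 and 1.18 in radial nerves (adjusted p = 1.33e-05). The probe set annotated to RGD1309362 lay between 10.57 and 11.69 in the old nerves, between 9.05 and 9.72 in 5 adult animals, and between 4.65 and 6.13 in adult 2, adult 3 and adult 6. The old animals and both sets of adult animals did not overlap in either nerve.

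The SD of RGD1309362 was 0.353 in old and 2.47 in adult sciatic nerves (adjusted p = 7.2e-06) and 0.238 and 2.16 in radial nerves (adjusted p = 4.81e-05, lost without adult 3 at 0.0623). Phf20, a reader of chromatin marks, was low in adult 1, adult 2 and adult 6 in both nerves, with an SD of 0.0981 in old and 0.312 in adult sciatic nerves (adjusted p = 0.0442, lost in 9 of 16 omissions) and of 0.0777 and 0.423 in radial nerves (adjusted p = 0.000183, lost without adult 2 at 0.0571). One probe set of Vcl, the adhesion protein vinculin, had an SD of 0.203 in old and 1.03 in adult sciatic nerves (adjusted p = 1.47e-05) and of 0.275 and 0.732 in radial nerves (adjusted p = 0.0393, lost in 12 of 16 omissions). Adult 3, adult 4, adult 6 and adult 7 were low in the sciatic nerve, and all old animals lay above all adult ones. The other probe sets of Zfp212, Phf20 and Vcl did not pass in either nerve. Those of Vcl were brighter, at means of 12.6 and 12.1, with SDs of 0.0789 in old and 0.118 in adult sciatic nerves for the brighter one.

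Adult 4, adult 5 and adult 6 are the animals with contradicting source names, and several of these divisions include them.  With the nerve of the source name, Rtel1 passed at 0.00315 in the sciatic and 0.00158 in the radial nerve, and Gstm4 at 0.000207 and 3.4e-06. That setting only exchanges the nerves within these animals. They stood on the same side in both nerves for these genes, so it could change the calls little. Without the 3 animals Rtel1 no longer passed (0.447 and 0.307), while Gstm4 (0.0165 and 0.000895), Zfp212 (0.0195 and 0.00594), RGD1309362 (5.46e-06 and 0.000115) and sciatic Vcl (4.58e-05) did. RT1-Ba passed without them as well (4.37e-07 and 2.69e-07). Among the 66 called pairs of gene and nerve, 48 passed with the nerve of the source name and 22 with the 3 animals left out, a setting with 5 adult animals instead of 8. With muscle and fat regressed out 30 of the 66 passed.

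The other named genes called less variable in old sciatic nerves, Uxt and Drg1, passed only narrowly. Uxt, a chaperone-like cofactor, had an SD of 0.0577 in old and 0.191 in adult nerves (adjusted p = 0.0474) with adult 2, adult 4, adult 7 and adult 8 low in both nerves, and lost its call in 11 of 16 omissions. Drg1, a GTP-binding protein, lay between 9.90 and 10.26 in old sciatic nerves, and between 7.07 and 7.79 in adult ones except adult 1 (9.58) and adult 6 (9.34). Its SD was 0.107 in old and 0.924 in adult nerves (adjusted p = 0.0491, lost in 10 of 16 omissions). The same pair of adult animals was high in the radial nerve, where the gene did not pass (adjusted p = 0.307).

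Of the genes next in order, none passed. Hacd3, an enzyme of very long chain fatty acid elongation, had an SD of 0.0446 in old and 0.171 in adult sciatic nerves (adjusted p = 0.064), and its dimmer second probe set had 0.23 and 0.0924. Crabp1, a carrier of retinoic acid, had 0.285 and 1.36 (adjusted p = 0.101), with adult 4 and adult 8 low in both nerves. Lysmd4 had 0.0968 and 0.308, and Apod, a lipid carrier of nerve, 0.0541 and 0.41 (adjusted p = 0.129 and 0.143). Apod lay between 14.34 and 14.49 in all 8 old sciatic nerves, and between 12.84 and 13.93 in adult ones. Med22 and Slfn9, ranked by both nerves together, did not pass in either (adjusted p of 0.182 or above).

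Some genes were called more variable in the sciatic nerve alone. Kazn, which encodes the junction protein kazrin, was 7.71 at the lowest, 8.03 at the median and 8.37 at the highest in old sciatic nerves, against 7.95, 8.07 and 8.23 in adult ones. Old 1 to old 4 lay between 7.71 and 7.85 and old 5 to old 8 lay near or above the highest adult animal, up to 8.37, with no overlap between these 2 sets. The SD was 0.277 in old and 0.0991 in adult sciatic nerves (adjusted p = 0.00111), and 0.0866 and 0.148 in radial nerves, where it did not pass (adjusted p = 0.441). The age change in spread differed between the nerves by 0.241 ± 0.0408 (SE, limma, adjusted p = 0.0306). Without old 1 and old 4 the sciatic adjusted p was 0.136, and with muscle and fat regressed out it was 0.307. A second, dimmer probe set of the gene had an SD of 0.206 in old and 0.186 in adult sciatic nerves.

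This interaction, the age change in spread of the sciatic nerve minus that of the radial nerve, passed for 2 of 31042 probe sets (0.00644%), and Kazn was the only one of them with a gene symbol. At an unadjusted p under 0.05 it was positive for 943 and negative for 935. The count was 0 with the group median, with squared deviations, with median centring and without the 3 contradicting animals. It was also 0 without old 3, old 6 or old 8, and without any single adult animal. Without old 4 or old 7 no positive interaction passed. A gene called in one nerve and not in the other is therefore not shown to differ between them. The difference of Kazn passed in the main fit but was lost in each of these settings. Among the other genes ranked highest, Npepl1 had SDs of 0.203 in old and 0.074 in adult sciatic nerves against 0.0302 and 0.0932 in radial nerves. The mineralocorticoid receptor gene Nr3c2 had 0.245 and 0.0748 against 0.0452 and 0.15, and the poly(A) polymerase gene Papola 0.128 and 0.0678 against 0.0302 and 0.118 (interaction adjusted p = 0.529 for these 3). Tp53rka ranked with them, and Nrip3, Rae1 and Capn15 ranked highest in the other direction with Gad1 and Dusp2, at the same adjusted p of 0.529.

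Gpr83, a G protein-coupled receptor, was 5.86, 7.16 and 8.68 at the lowest, median and highest in old sciatic nerves, against 5.20, 5.31 and 5.63 in adult ones. All old sciatic nerves lay above all adult ones and were spread over a wide range, with old 7 and old 4 highest. The SD was 0.993 in old and 0.146 in adult sciatic nerves (adjusted p = 0.0114), and 0.844 and 0.192 in radial nerves (adjusted p = 0.0765), where old 6 and old 7 stood apart. The sciatic set also held Rab3b, a GTPase of vesicle release, and Kcnd3, a potassium channel subunit, both chosen after their values were seen. Rab3b had an SD of 0.575 in old and 0.233 in adult nerves (adjusted p = 0.0161, lost in 5 of 16 omissions) and Kcnd3 one of 0.489 and 0.117 (adjusted p = 0.0229, lost in 6). A second probe set of Kcnd3 had 0.219 and 0.105 in sciatic nerves and did not pass (adjusted p = 0.776). The muscle gene Sln, sarcolipin, lay at 9.80 and 9.74 in old 4 and old 7 and at 5.42 or below in the other old sciatic nerves (SD 2.13 in old and 0.618 in adult nerves, adjusted p = 0.0491, lost in 9 of 16 omissions). The muscle list averaged 12.1 in old 4 and 11.6 in old 7, against at most 7.1 in the other 6 old sciatic nerves.

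In the radial nerve the most frequent division set old 1, old 6 and old 7 apart. It was the division of 19 of the 106 probe sets more variable at 24 months (17.9%, against 0.825% of all probe sets), with the 3 animals on the high side in 18 and on the low side in 1. The genes were Ajap1, Apoc1, Blnk, Gad1, Ngfr, Pabir2, Plcd1, Plekha1, Scn3b and Thbs2, with Sc5d on the low side. The division was counted on the same radial arrays that gave the calls, and the genes beyond Apoc1, Pabir2 and Gad1 were chosen after their values were seen.

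Ngfr encodes the p75 neurotrophin receptor of repair Schwann cells. It was 9.23 at the lowest, 10.20 at the median and 11.61 at the highest in old radial nerves, against 8.02, 8.39 and 8.63 in adult ones. Old 1, old 6 and old 7 lay between 10.95 and 11.61, within the range of the 8 old sciatic nerves (10.87 to 12.09), and the other 5 old radial nerves between 9.23 and 10.36, all above the adult animals. The SD was 0.852 in old and 0.229 in adult radial nerves (adjusted p = 0.0474), and 0.455 and 0.184 in sciatic nerves (adjusted p = 0.379).

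Scn3b, a beta subunit of voltage-gated sodium channels, was 8.44, 9.00 and 10.76 at the lowest, median and highest in old radial nerves, against 7.31, 7.73 and 8.05 in adult ones. Old 1, old 6 and old 7 lay at 9.84 or above and the other old animals at 9.01 or below. The SD was 0.872 in old and 0.262 in adult radial nerves (adjusted p = 0.0364), and a second probe set of the gene passed too (SD 0.881 and 0.206, adjusted p = 0.00808). Thbs2, the matrix protein thrombospondin-2, was 9.86, 10.87 and 12.00 in old radial nerves, against 9.40, 9.67 and 9.86 in adult ones (SD 0.774 and 0.179, adjusted p = 0.0497).

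Gad1, which makes GABA from glutamate, was 4.57, 5.86 and 7.80 at the lowest, median and highest in old radial nerves, against 4.21, 4.46 and 4.87 in adult ones. Old 1, old 6 and old 7 lay between 7.22 and 7.80, and the next old animal, old 4, at 6.11. The SD was 1.25 in old and 0.211 in adult radial nerves (adjusted p = 0.00758), and 0.432 and 0.532 in sciatic nerves. A second, dimmer probe set did not pass. Apoc1, an apolipoprotein made by lipid-loaded macrophages among others, had an SD of 1.08 in old and 0.254 in adult radial nerves (adjusted p = 0.00446), with old 1, old 6 and old 7 between 9.30 and 9.91 and the other old animals between 6.90 and 7.85. Pabir2, Ajap1 and Blnk, a signalling adaptor of B cells and macrophages, had SDs of 0.356, 0.686 and 0.45 in old against 0.085, 0.224 and 0.116 in adult radial nerves (adjusted p = 0.00472, 0.000958 and 0.0416).

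Most of these calls lay near the threshold. The call of Ngfr and that of Thbs2 were lost in 11 of 16 omissions of an animal, that of Scn3b in 10, and that of Apoc1 without old 1, old 6 or old 7 (up to 0.0931). The pieces also differed in muscle. The muscle list averaged 9.09, 7.38 and 7.54 in old 1, old 6 and old 7, and 13.6, 11.4, 12.0 and 11.9 in old 2, old 3, old 5 and old 8, while old 4, which was not among the high animals, stood at 7.71. With the muscle and fat lists regressed out within each group, Ngfr (0.646), Scn3b (0.537), Thbs2 (0.48), Apoc1 (0.346), Gad1 (0.156), Pabir2 (0.17), Ajap1 (0.801) and Sc5d (0.0536) did not pass and Blnk did (0.028). In adult radial nerves the muscle list ranged as widely, between 7.44 and 13.5, beside an SD of 0.229 for Ngfr. The part of muscle in the old division was not tested further.

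**Figure D3:**
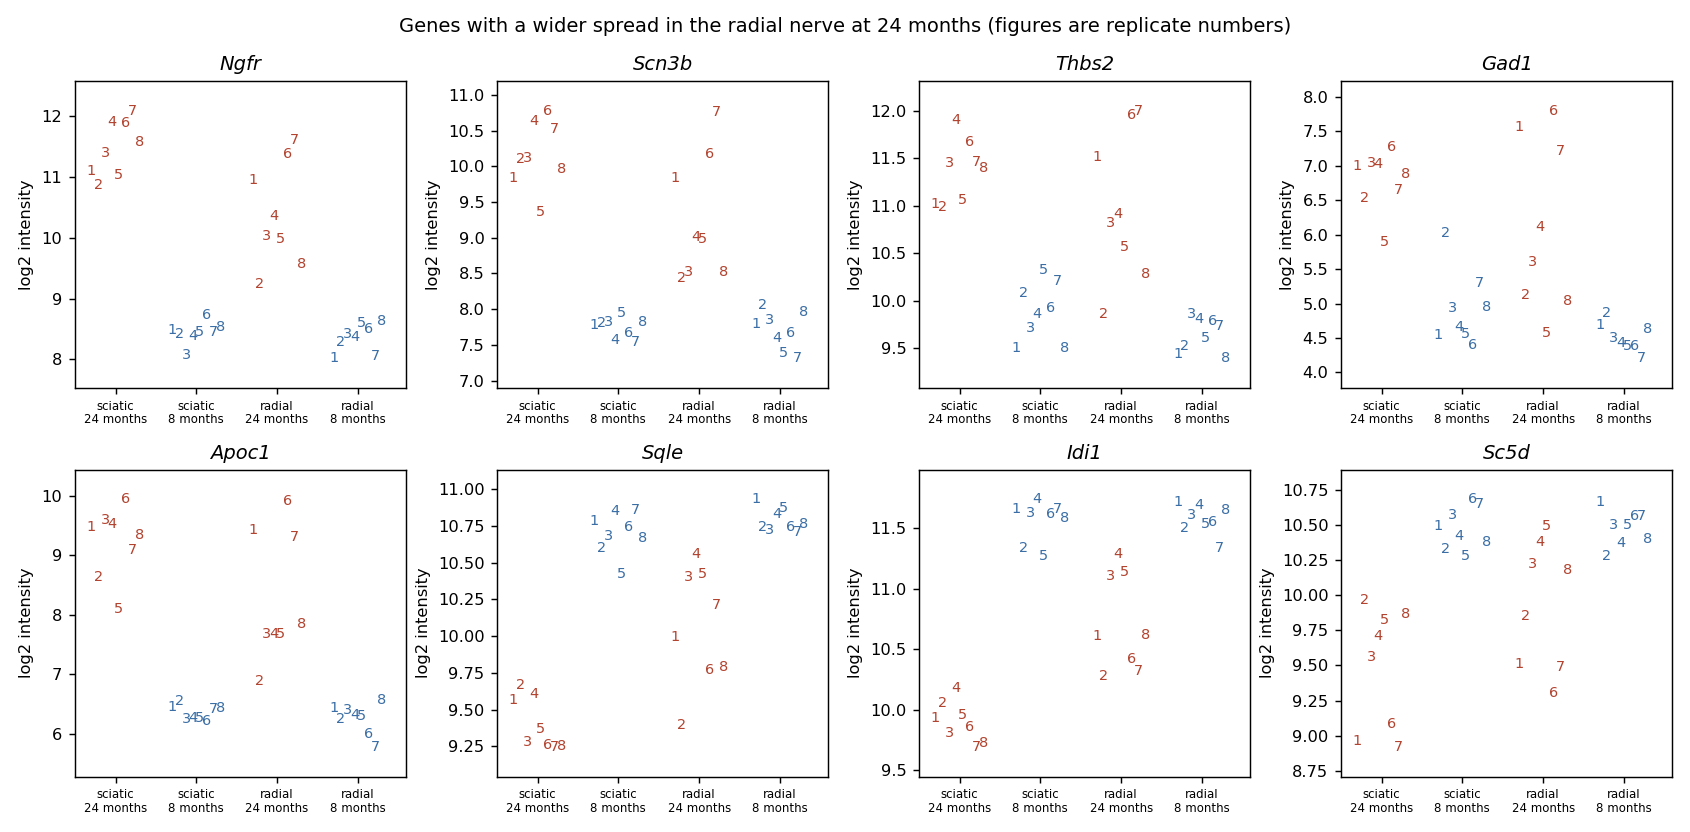
Log2 level (y axis) of 8 genes in each animal of the 4 groups (x axis), with replicate numbers as symbols, old animals in red and adult animals in blue. Old 1, old 6 and old 7 stand above the other old radial nerves for Ngfr, Scn3b, Thbs2, Gad1 and Apoc1, and old 3, old 4 and old 5 are highest for Sqle and Idi1.

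Cholesterol synthesis had the largest median log2 variance ratio over genes among the 31 lists in the radial nerve, while by the list mean the ratio was 3.81 for it and 4.71 for cell cycle genes. Schwann cells make the cholesterol of myelin themselves. Of 16 measured genes of the pathway, 15 had the higher variance in old radial nerves, 3 were called more variable and 0 less (0.341% and 0.132% of all probe sets), and the median log2 variance ratio was 2.88, beside 0.405 over all probe sets. In the sciatic nerve 11 of 16 had the higher variance at 24 months, 0 were called and the median ratio was 0.597, beside 0.537. With 1 probe set per gene, as in the lists, the median over all genes was 0.705 in the sciatic and 0.481 in the radial nerve. The mean of the list had an SD of 0.263 in old and 0.0702 in adult radial nerves, and of 0.107 and 0.0971 in sciatic nerves. It was highest in old 4 (10.2), old 3 (10.1) and old 5 (10.1) and lowest in old 2 (9.5), against 10.3 to 10.5 in adult radial nerves and 9.37 to 9.65 in old sciatic nerves, so the old radial nerves lay largely between those groups.

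Sqle, the squalene epoxidase of this pathway, was 9.40 at the lowest, 10.10 at the median and 10.56 at the highest in old radial nerves, against 10.71, 10.75 and 10.93 in adult ones. The SD was 0.399 in old and 0.0818 in adult radial nerves (adjusted p = 0.0165), and 0.178 and 0.145 in sciatic nerves, whose old animals lay between 9.25 and 9.67. Idi1, the isopentenyl diphosphate isomerase, was 10.28, 10.61 and 11.29 in old radial nerves, against 11.34, 11.58 and 11.72 in adult ones (SD 0.4 and 0.122, adjusted p = 0.0206). In both genes no old radial nerve overlapped the adult ones. Sc5d, the lathosterol oxidase, had an SD of 0.454 in old and 0.123 in adult radial nerves (adjusted p = 0.0241), with old 1, old 6 and old 7 lowest in both nerves, and its other probe set passed too (0.0422). Msmo1, a sterol oxidase, had 0.302 and 0.0689 and did not pass (adjusted p = 0.0554).

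Erg28, a scaffold of sterol synthesis chosen after its values were seen, had an SD of 0.268 in old and 0.0763 in adult radial nerves (adjusted p = 0.0497). The calls of Idi1 and Sc5d were lost in 7 and 8 of 16 omissions and that of Erg28 in 10, while that of Sqle passed in all 16 (highest adjusted p 0.0481). With muscle and fat regressed out, Sqle (0.075), Idi1 (0.0673), Sc5d (0.0536) and Erg28 (0.106) did not pass, and with the nerve of the source name Sqle passed (0.0469) and Idi1 (0.0848), Sc5d (0.0529) and Erg28 (0.101) did not. Without the 3 animals of contradicting source names none of the 4 passed (Sqle 0.119, Idi1 0.2, Sc5d 0.21 and Erg28 0.251).

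Uqcc6, an assembly factor of respiratory complex III, was more variable in both old nerves. Its SD was 0.462 in old and 0.127 in adult radial nerves (adjusted p = 2e-04), and 0.362 and 0.105 in sciatic nerves (adjusted p = 0.0296). Old 2, old 3, old 4 and old 5 had radial levels of 8.36 to 8.72, while the remaining old animals had 7.66 to 7.73, all below the adult animals. Dusp2, a phosphatase that switches off MAP kinases, had an SD of 0.795 in old and 0.235 in adult radial nerves (adjusted p = 0.00122), with old 3, old 4, old 6 and old 8 high, and 0.395 and 0.308 in sciatic nerves (adjusted p = 0.872). Iqck had 0.387 and 0.0799 in radial nerves (adjusted p = 0.00501), with old 1, old 5 and old 7 between 6.89 and 7.00 and the other 5 at 6.35 or below.

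The receptor genes Tgfbr1, of the TGF-beta pathway, and F2r, a thrombin receptor, were also more variable in old radial nerves and were chosen after their values were seen. Tgfbr1 had an SD of 0.325 in old and 0.0737 in adult nerves (adjusted p = 0.0375), and F2r one of 0.415 and 0.111 (adjusted p = 0.0498), with old 6 and old 7 highest in both. The same held for Tmem196 (SD 1.12 and 0.323, adjusted p = 0.0497), whereas Baalc (1.08 and 0.218, 0.0294) and Btbd16 (0.651 and 0.195, 0.0406) had old 2 alone on the low side. These calls were lost in 9 to 13 of 16 omissions. A second probe set of Tgfbr1 had 0.209 in old and 0.105 in adult radial nerves and did not pass (adjusted p = 0.682).

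Fewer named genes were less variable in old radial nerves alone. Me3, a mitochondrial malic enzyme, had an SD of 0.099 in old and 0.468 in adult radial nerves (adjusted p = 0.0463), with all adult animals above all old ones and adult 4 lowest among them (7.15). Kif15, a kinesin of the mitotic spindle, had 0.222 and 0.604 (adjusted p = 0.0497), and Cnbd2 0.0325 and 0.225 (adjusted p = 0.0397). A second probe set of Cnbd2 went the other way, with 0.203 in old and 0.112 in adult radial nerves, and did not pass (adjusted p = 0.58). The Me3 and Kif15 calls were lost in 12 and the Cnbd2 call in 10 of 16 omissions, and all 3 with the nerve of the source name (0.211, 0.431 and 0.246). Pdhx, of the pyruvate dehydrogenase complex, had 0.167 and 0.28 (adjusted p = 0.051), Gatb 0.0676 and 0.2 (0.0566) and Exosc2 0.0701 and 0.181 (0.087), and these did not pass. A second probe set of Gatb had the wider spread in old radial nerves (SD 0.308 in old and 0.202 in adult nerves) and did not pass either.

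Genes of T and NK cells and of macrophages had the largest median increases of spread in the sciatic nerve. Of 17 measured genes of T and NK cells, 16 had the higher variance in old sciatic nerves, 0 were called, and the median log2 variance ratio was 3. For macrophage genes it was 18 of 18, 0 called and 2.87, for antigen presentation 11 of 11, 0 called and 2.61, and for genes of lymph node stroma and chemokines 7 of 7, 0 called and 2.41, each beside 0.537 over all probe sets. In the radial nerve the medians were 1.31, 1.07, 1.54 and 1.57, beside 0.405, with 0 called in these 4 lists. The lists hold the brightest probe set of each gene. With 1 probe set per gene the medians over all genes were 0.705 in the sciatic and 0.481 in the radial nerve. Among the brightest 7761 probe sets they were 0.921 and 0.696.

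Old 1 stood apart in its sciatic nerve. The mean of the T and NK cell list was 7.85 in it, against 5.88 to 6.55 in the other old and 5.95 to 6.37 in the adult sciatic nerves, and the mean of the macrophage list was 12.1 against 10.2 to 11.0 and 10.3 to 10.7. Its antigen presentation list averaged 12.2 and its lymph node list 8.98, whereas old 4 was lowest at 10.2 and 6.8. In the radial nerve of old 1 the T and NK cell list averaged 6.77 among 6.06 to 6.77 in the group. The log2 variance ratio of the list mean in the sciatic nerve was 4.03 for T and NK cells, 3.84 for macrophages and 4.92 for antigen presentation. Without old 1, the animal farthest from the group median, it was 1.24, 2.01 and 3.22. Leaving out the farthest old animal lowers such a ratio by construction, here and for the lists below.

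Among the members with the widest change, Cd8b, a chain of the coreceptor of cytotoxic T cells, had an SD of 1.24 in old and 0.182 in adult sciatic nerves, and the cytotoxic granule gene Nkg7 had 0.896 and 0.173. Ciita, the master regulator of class II genes, had 0.901 and 0.0794, the integrin gene Itgam of myeloid cells 1.24 and 0.208, and Mrc1, the mannose receptor of resident macrophages, 1.08 and 0.206. The B cell attractant Cxcl13 had 1.85 and 0.526 and the lymphoid chemokine Ccl21 1.1 and 0.274. None of these passed the test.

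The means of the neutrophil and blood cell lists stood out in another old sciatic nerve, that of old 3. Its neutrophil list averaged 8.35, against 5.5 to 6.18 in the other old sciatic nerves, and its blood list 9.26. Camp, the antimicrobial peptide of neutrophil granules, had an SD of 1.53 in old and 0.195 in adult sciatic nerves, and Slc4a1, the anion exchanger of red cells, 1.44 and 0.235. Of the 6 measured blood cell genes, 4 had the higher variance in old sciatic nerves. The haemoglobin gene Hba-a3 (SD 0.614 in old and 0.72 in adult nerves) and Ppbp (0.12 and 0.23) went the other way. The log2 variance ratio of the list mean was 2.29 for neutrophils and 2.26 for blood cells, and without old 3 it turned to -1.27 and -0.811. The median ratio over the neutrophil genes was 2.05 in the sciatic and -0.28 in the radial nerve, with 0 of 6 called in each.

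**Figure D4:**
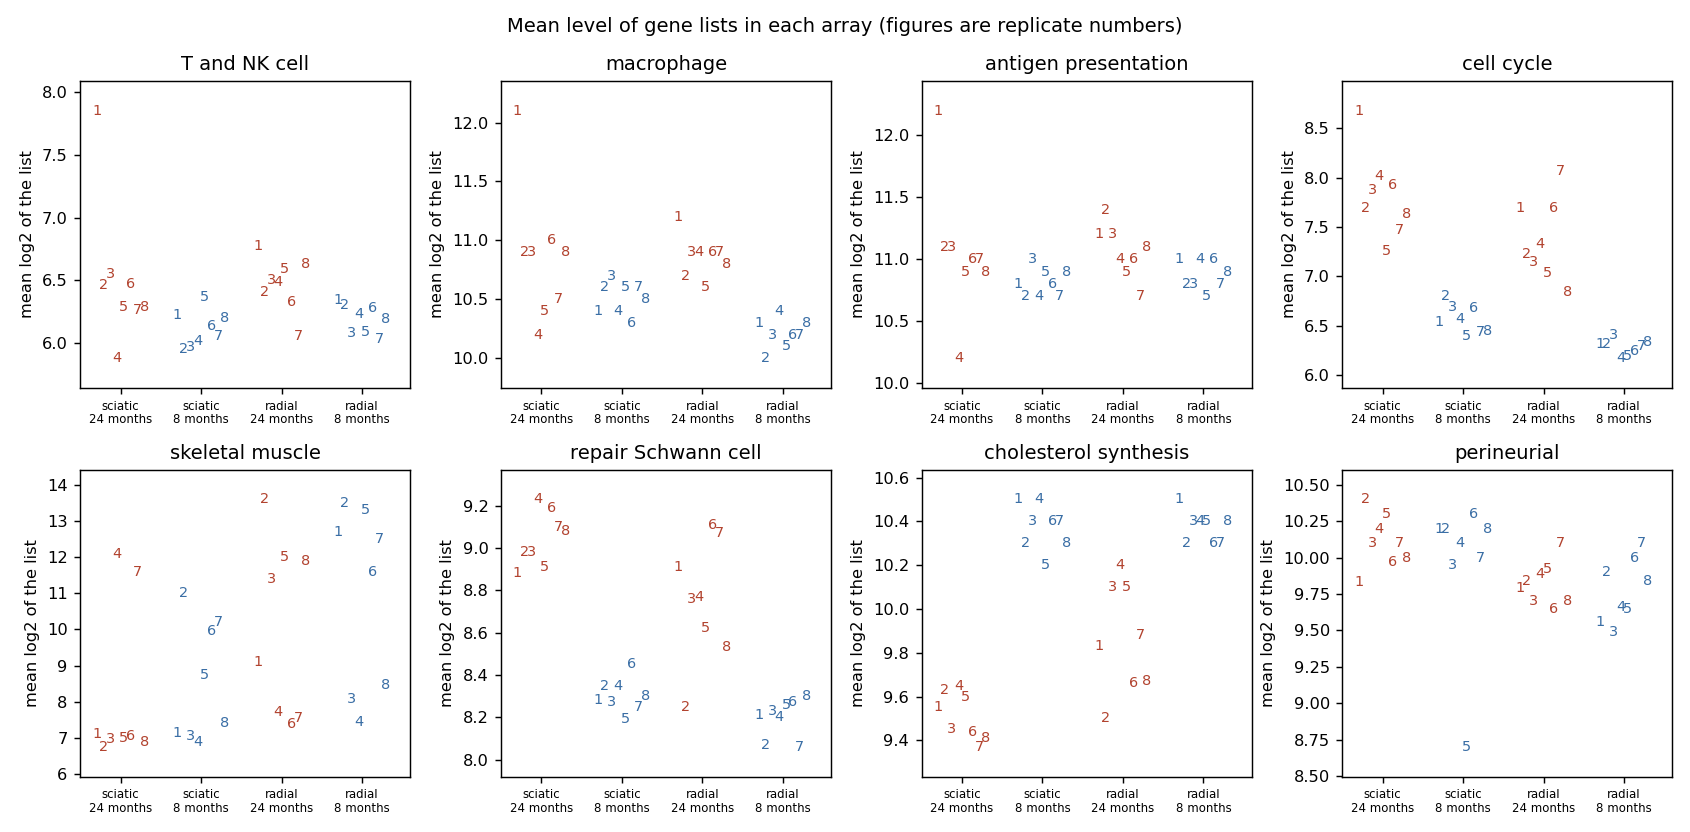
Mean log2 level (y axis) of 8 gene lists in each array of the 4 groups (x axis), with replicate numbers as symbols, old animals in red and adult animals in blue. Old 1 is highest of the old sciatic nerves for T and NK cell genes (7.85), and adult 5 is lowest of the adult sciatic nerves for perineurial genes (8.7).

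Myelin genes were farther apart in old animals of both nerves. Of 15 measured genes, 15 had the higher variance at 24 months in the sciatic and 15 in the radial nerve, with median log2 variance ratios of 2.85 and 2.49. The median SD of a myelin gene was 0.302 in old and 0.112 in adult sciatic nerves, and 0.247 and 0.092 in radial nerves. Over the brightest 7761 probe sets the median SD was 0.114 in old and 0.0808 in adult sciatic nerves, and 0.116 and 0.0904 in radial nerves. The median log2 variance ratios of those probe sets were 0.921 and 0.696. Cnp, a myelin enzyme, was called in the radial nerve (SD 0.236 in old and 0.0464 in adult nerves, adjusted p = 0.0497, lost in 12 of 16 omissions), and the other 14 were not called in either nerve. A second, dimmer probe set of Cnp had 0.267 and 0.0807 in radial nerves and did not pass (adjusted p = 0.327). Of all probe sets, 0.341% were called more variable in the radial nerve. Egr2, the transcription factor that drives myelination, had 0.286 and 0.087 in sciatic and 0.37 and 0.0616 in radial nerves, and Mbp 0.08 and 0.0256 in the sciatic nerve. The log2 variance ratio of the list mean was 4.21 in the sciatic nerve and 3.32 without old 4, and 2.58 in the radial nerve and 1.16 without old 2.

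Cell cycle genes were likewise more dispersed, with 13 of 13 at the higher variance in old sciatic and 12 of 13 in old radial nerves, 0 called, and median ratios of 1.92 and 2.57. The list mean lay between 6.84 and 8.07 in old radial nerves, with old 7 highest, against 6.17 to 6.41 in adult ones, and it was highest in old 1 (8.68) in the sciatic nerve. Mki67, a marker of dividing cells, had an SD of 0.567 in old and 0.171 in adult radial nerves. Repair Schwann cell genes had median ratios of 1.32 and 1.23, with Ngfr as the 1 radial call of 16 measured genes, beside 0.341% of all probe sets. Their mean had an SD of 0.286 in old and 0.0898 in adult radial nerves, with old 6 (9.11), old 7 (9.07) and old 1 (8.91) highest and old 2 (8.25) lowest, against 8.06 to 8.3 in adult radial nerves.

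Clock genes had median ratios of 1.42 in the sciatic and 1.32 in the radial nerve, with 0 of 16 called. Bmal1, a core activator of the circadian clock, had an SD of 0.703 in old and 0.223 in adult radial nerves. The list mean was highest in old 8 in both nerves (9.96 and 9.88). The time of day at which each animal was killed is not given in the sources used here.

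Some lists had a median log2 variance ratio below that over all probe sets, in the sciatic nerve or in both nerves. Perineurial genes had a median log2 variance ratio of -1.93 in the sciatic nerve, with 2 of 8 at the higher variance in old animals and 0 called, and of 0.449 in the radial nerve. The tight junction gene Cldn1 had an SD of 0.253 in old and 0.888 in adult sciatic nerves, and the glucose transporter gene Slc2a1 0.152 and 0.504. Adult 5 alone was low in the perineurial list, at 8.7 against 9.95 to 10.3 in the other adult sciatic nerves, and its array was the adult sciatic array farthest from its group. Ribosomal protein genes had a median ratio of -0.578 in the sciatic nerve, with 2 of 11 higher, and of 1.27 in the radial nerve, with 11 of 11 higher, and 0 called in each. Their SDs were small, such as 0.0186 in old and 0.0636 in adult sciatic nerves for Rps3.

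Collagen and matrix genes had median ratios of 0.0672 in the sciatic and -0.442 in the radial nerve. There Thbs2 was the 1 of 16 called, beside 0.341% of all probe sets called more variable. The main fibrillar collagen gene Col1a2 had an SD of 0.0294 in old and 0.12 in adult sciatic nerves and did not pass. Genes of the interferon response had medians of 0.446 and 0.257, with 0 of 18 called. The higher variance was in old animals for 11 of 18 in the sciatic and 10 of 18 in the radial nerve. At the ends of the list, Gbp2 had an SD of 0.26 in old and 0.0682 in adult sciatic nerves. Ifit1, an antiviral effector, had 0.197 and 0.62. Of the 31 lists, 28 had a median above 0 in the sciatic and 24 in the radial nerve, against medians of 0.537 and 0.405 over all probe sets, and their members share animals.

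**Figure D5:**
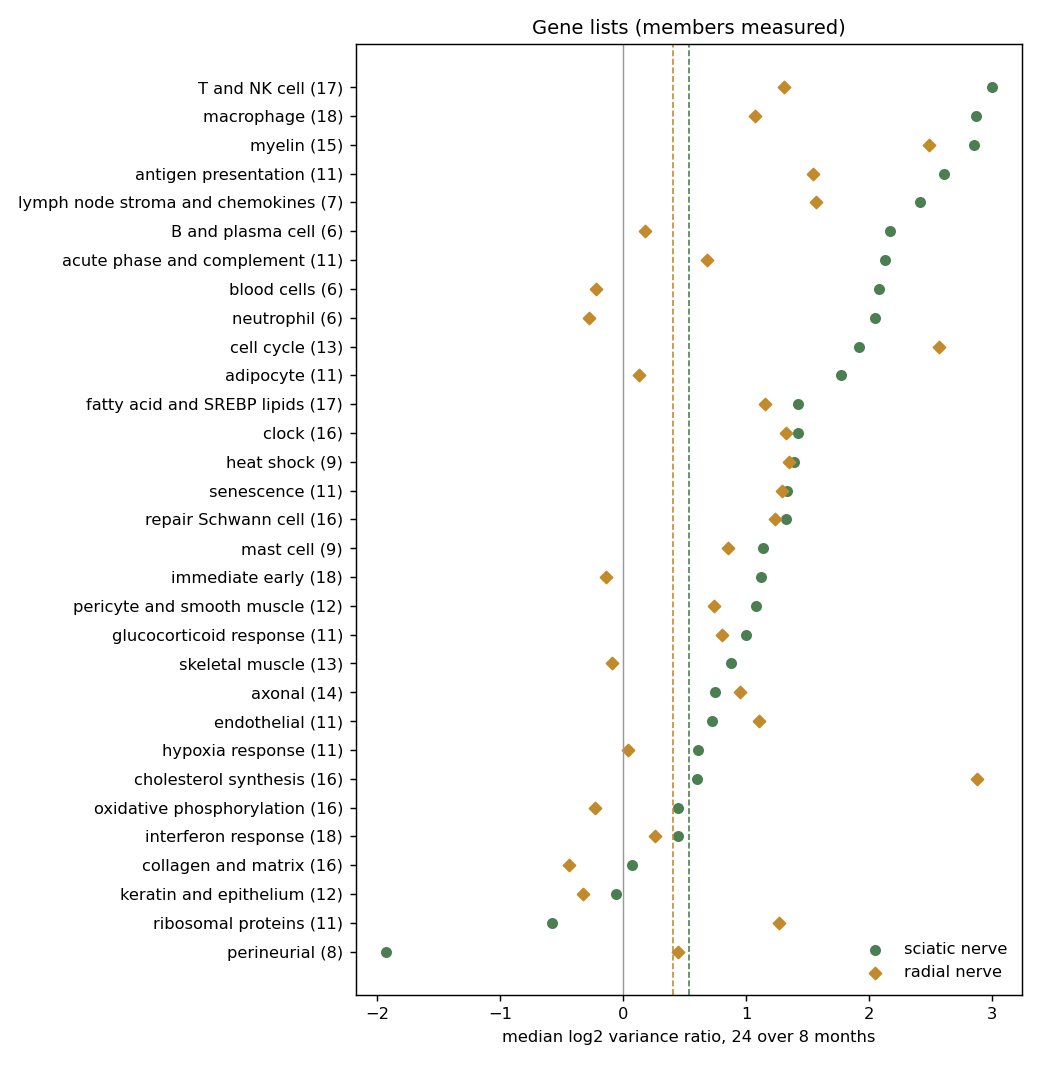
Median log2 variance ratio of 24 over 8 months (x axis) over the measured members of each gene list (y axis, number of members in brackets), in the sciatic (circles) and the radial nerve (diamonds). Dashed lines mark the medians over all probe sets, 0.537 and 0.405. T and NK cell genes lead in the sciatic nerve (3) and cholesterol synthesis in the radial nerve (2.88).

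Among named genes represented by their brightest probe set, the 5 widest SDs of each group belonged to genes of skeletal muscle, except for RT1-T24-4 in adult sciatic nerves, and none of these passed the test between the ages. Ckm, the muscle creatine kinase, was 5.04 at the lowest, 5.31 at the median and 13.24 at the highest in old sciatic nerves, against 5.03, 7.37 and 11.64 in adult ones. Its SD was 3.48 in old and 2.78 in adult sciatic nerves (adjusted p = 0.868) and 3.01 and 3.16 in radial nerves (adjusted p = 0.969). Myl11, Tnnc2, Acta1 and Ttn, parts of the contractile apparatus, had SDs between 3.08 and 3.34 in old sciatic nerves, and Atp2a1, Mybpc2 and Cox6a2 between 3.24 and 3.3 in adult radial nerves. Over the muscle list, 0 of 13 were called in each nerve, with median ratios of 0.878 in the sciatic and -0.0898 in the radial nerve. Old 4 and old 7 were the muscle-rich sciatic pieces at 24 months, and adult 3, adult 4 and adult 8 the muscle-poor radial pieces at 8 months. Among the 100 probe sets of widest SD in a group, those of the muscle list numbered 12 in old and 10 in adult sciatic nerves, and 13 in each radial group.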

How the data were processed

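The authors hybridised labelled cRNA from total RNA to Affymetrix whole-genome rat arrays and summarised them by RMA in Expression Console (version not given in the sources used here). The deposited table holds these log2 values, already background-corrected and quantile-normalized, and precision is limited by how many arrays there were, not by a read depth. Of 31139 probe sets, 97 controls were left out. A single gene symbol was given for 19062 probe sets, several for 573 and none for 11407. Groups came from the sample titles.

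Absolute deviations from the group mean, scaled for the group size, were fitted with limma 3.58.1 (R 4.3.3, statmod 1.5.0) on 4 groups and 32 arrays, with each rat treated as a random block (consensus correlation 0.0102) and Benjamini-Hochberg adjustment over 31042 probe sets, two-sided, at 0.05. The block follows from the labels, which give both nerves of an animal the same number. Between a rat's nerves, deviations had a correlation over 0.1 for 13 of 16 rats (-0.103 to 0.491), and absolute deviations in 12 of 16. Array distances were compared by an exact permutation test over 12870 splits. Where nothing separates animals by cage, p-values measure the spread between these animals. On simulated normal data, fitted without the block, the test recovered 1 of 100 probe sets with a 2-fold change in SD. It recovered 14 of 100 with a 4-fold change, and 2 unchanged probe sets were called. A probe set that did not pass may therefore still differ in spread.

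Named genes had a mean of at least 6 at either age and the brightest probe set: the 8 more and 8 less variable with the smallest p in each nerve, 5 and 5 over both nerves, 5 and 5 by interaction, the ends of each list and the widest SDs in each group. Members and gene lists were chosen with earlier results of these data known. The 31 lists hold 443 entries, 386 of them measured. Alternatives changed the centre, the deviation, the test, the block, filters, normalization, the nerve label, muscle and fat content, the threshold and the animals. No batch of hybridisation or scanning is given in the labels.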

Additional observations from a re-analysis of the deposited data

Results flagged for a closer look

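In 14 of 300 groups of 8 animals looked at, 1 animal lay far from the others, and chance gives about 1 in 20. In sciatic nerves these were old 1 for Gstm4 (9.88) and Me3 (6.54), old 5 for Lysmd4 (6.96), adult 5 for Gpr83 (5.64) and Erg28 (9.84), and adult 8 for Gatb (7.38). In radial nerves these were old 3 for Rtel1 (10.2), old 7 for Drg1 (9.66), old 8 for Zfp212 (5.22), adult 5 for Uqcc6 (9.22) and Npepl1 (10.8), adult 6 for Apod (12.2) and adult 7 for Dcps (8.64). The sciatic array of adult 5 lay farthest from its group (0.253, the next 0.202). For Kazn the age change in spread differed between the nerves by 0.241 (interaction in limma, adjusted p = 0.0306).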

How the results depend on the processing

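The count of probe sets with changed spread, 88 in the sciatic and 147 in the radial nerve with 2 for the interaction, depended on the test. It was 19, 21 and 0 with deviations from the group median, 10, 24 and 0 with squared deviations, and 29, 47 and 0 with an intensity trend and robust prior. It was 363 in the sciatic and 86 in the radial nerve with an F test, 55 and 77 with each nerve fitted alone, 27 and 33 with 1 probe set per gene, and 138 and 278 at an adjusted p under 0.1. With muscle and fat regressed out it was 1220, 310 and 53, of which 61 sciatic and 51 radial probe sets were among the original calls, the sciatic distance ratio was 0.266 (exact permutation, adjusted p = 0.00466) and the sciatic spread of Sln turned to -0.344; the cause was not tested. Without the 3 animals of contradicting source names the radial count was 65 (28 more, 37 less variable) and the interaction 0, with fewer animals, and the sciatic count was 67 (27 and 40). Without both old 1 and old 4, an omission added after the data were seen, the radial count was 621, the interaction 0 and the sciatic median ratio -0.0176; the cause was not tested. The interaction was 1 with the variability filter, 1 without dim probe sets and 0 with median centring.

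Leaving out 1 animal gave 67 to 112 sciatic calls, 84 (without old 7) to 288 (without old 4) radial calls and 0 to 5 for the interaction. The sciatic median ratio was 0.296 to 0.73 and the radial one 0.247 to 0.485. The sciatic distance ratio was 0.204 to 0.442 and the radial one -0.0262 to 0.155. Without the replicate block of the animal the counts were 81, 144 and 2, and 64 of 66 named calls passed. Quantile normalization, the nerve of the source name and the remaining filters left both nerves' counts within 1.5 times, but with the nerve of the source name the radial median ratio was 0.192 and the distance ratios were 0.148 and 0.0181. With 8 arrays a group, a variance ratio under 4.99-fold is inside the 95% limit.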
